A study of Mus musculus with 22 samples.

Results

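The leukocyte integrins described here are 10 genes that encode integrin chains used by white blood cells: the α chains Itgam, Itgax, Itgal, Itgae, Itga4 and Itgav and the β chains Itgb1, Itgb2, Itgb7 and Itgb8. They were picked by gene name, with no threshold on a measured value but with earlier results of these data known, out of the 34047 gene symbols in the RNA table, and all 10 passed the filter on low counts in every RNA comparison. The chromatin data added 138 of 177956 accessible windows, each 150 bases wide and centred on the summit of a peak whose closest gene was one of the 10. Of these, 133 windows passed the filter on low counts.

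RNA-seq was done on 3 subsets of conventional dendritic cells from mice carrying an RFP-Cre reporter at the Tbx21 locus, which encodes the transcription factor T-bet. Spleen gave 3 libraries each of XCR1+ cDC1, T-bet- cDC2 and T-bet+ cDC2. The mesenteric lymph node (MLN) gave 3 cDC1, 2 T-bet- cDC2 and 2 T-bet+ cDC2 libraries. ATAC-seq, which counts transposase cuts in open chromatin, covered the same 3 spleen subsets with 2 libraries each. The mice were 6 to 10 weeks old and naive, every group carried the homozygous reporter knock-in, and each RNA library pooled sorted cells of 2 mice. The sort took CD11c+ MHCII+ cells that lacked CD3, CD90, CD64, Ly6C and a further lineage marker, and split them into CD11b+ XCR1- cDC2, with or without RFP, and CD11b- XCR1+ cDC1. CD11c is the product of Itgax and CD11b that of Itgam, so the presence of Itgax RNA in every group, and the excess of Itgam RNA in cDC2 over cDC1, follow from the gate and are given as a description only. The spleen and MLN libraries differ in tissue and in whatever else separated their preparation, and these cannot be told apart.

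An integrin is a pair of one α and one β chain at the cell surface, and neither chain reaches the surface alone. The β2 chain (Itgb2) pairs with the α chains of LFA-1 (Itgal), Mac-1 (Itgam) and CD11c (Itgax), which bind ICAMs and complement fragments when talin and kindlin-3 switch them on. The β7 chain pairs with αE (Itgae, CD103), a receptor for E-cadherin that marks many cDC1, and with α4 (Itga4), the gut-homing receptor for MAdCAM-1. The α4 chain also pairs with β1 (Itgb1) to bind VCAM-1 and fibronectin, and αv pairs with β8 (Itgb8) to release active TGF-β from its latent form.

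Marker genes were checked in the 16 RNA libraries and went with the labels; the 6 ATAC libraries had no such check. Tbx21 RNA was at 17.2 to 24.9 CPM (counts scaled by library size) in spleen T-bet+ libraries and at 0.145 to 2.38 CPM in the other spleen libraries, and at 2.93 and 7.19 CPM in MLN T-bet+ libraries against 0.243 to 0.918 CPM in the other MLN libraries. The summed level of 7 cDC1 marker genes was 3234 to 7134 CPM in cDC1 and 149 to 654 CPM in cDC2. RNA libraries held 20993220 to 29006549 counts and ATAC libraries 7270164 to 10081555 window counts. Libraries fell into a higher and a lower class by how their deviations from the tissue mean tracked the GC content of transcripts. The higher class in spleen held T-bet- replicate 3, replicates 1 and 2 of cDC1 and every T-bet+ library, so class and subset are partly confounded. In MLN, T-bet- replicate 2 and cDC1 replicates 2 and 3 were in the higher class. A sum of 7 genes of migratory dendritic cells (among them Ccr7, the receptor that guides dendritic cells to lymph nodes) also set libraries apart: it was 2976 CPM in MLN T-bet+ replicate 1 and 4161 CPM in MLN cDC1 replicate 1, but 11158 to 15199 CPM in the other 5 MLN libraries.

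**Figure D1:**
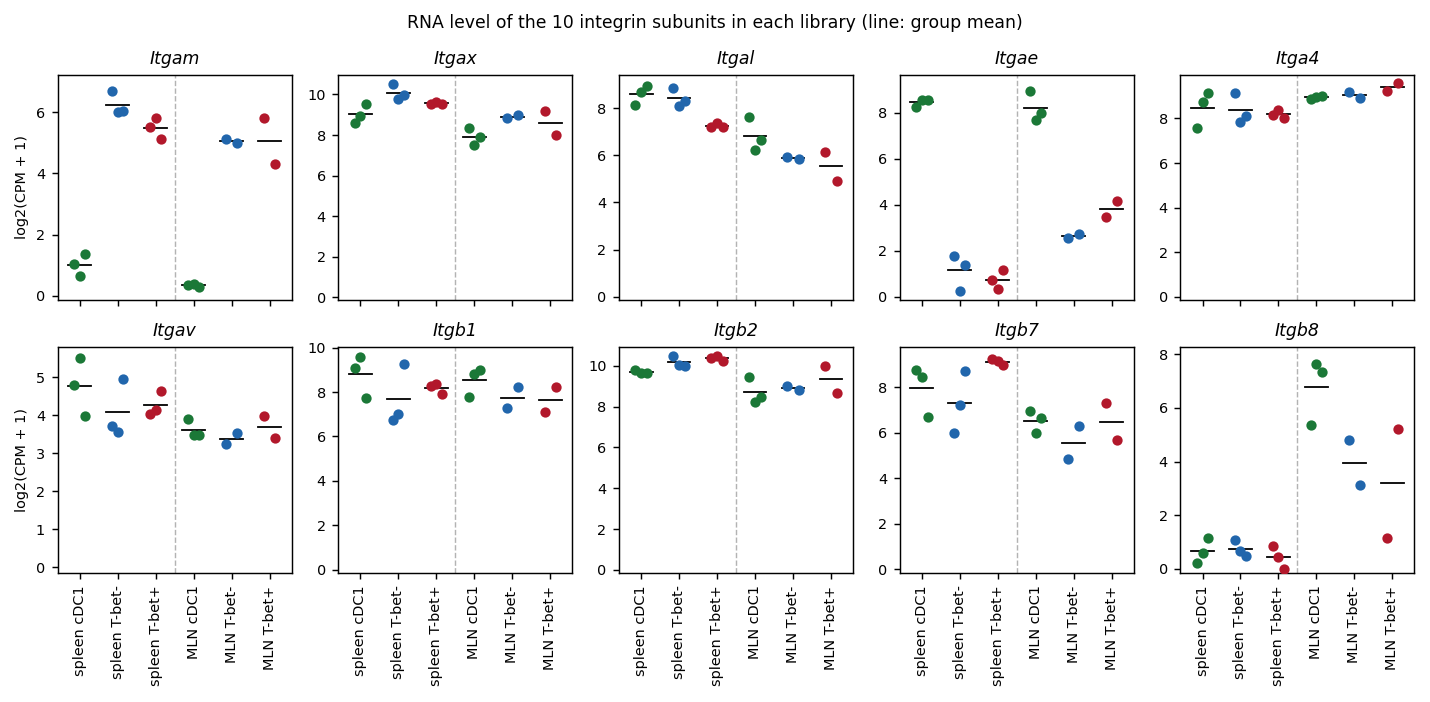
RNA level of each integrin chain, as log2(CPM + 1), in the 16 libraries by tissue and subset; each point is a library and each line a group mean. Itgam and Itgae separated cDC2 from cDC1 without overlap in both tissues, and Itgb8 was at 1.21 CPM or lower in every spleen library.

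Before the single chains, the counts over all 10 give the scale of the differences (edgeR quasi-likelihood test, Benjamini-Hochberg adjusted p under 0.05 over all genes tested). In spleen, 1 of the 10 differed between T-bet+ and T-bet- cDC2, where 5.38% of all genes tested did. Between T-bet+ cDC2 and cDC1 4 of the 10 differed (18.2% of all genes), and between T-bet- cDC2 and cDC1 3 of the 10 (15.9%). In MLN, 2 of the 10 differed between T-bet+ cDC2 and cDC1 (6.22% of all genes) and 2 between T-bet- cDC2 and cDC1 (5.79%). Each of these counts against cDC1 includes Itgam, whose excess in cDC2 follows from the gate. The others in spleen were Itgae, Itgal and Itgb2 for T-bet+ cDC2, and Itgae and Itgax, also a gate gene, for T-bet- cDC2. In both MLN comparisons the other chain was Itgae. None of the 10 differed between the MLN cDC2 subsets, where edgeR called 0.0% of all genes. At an unadjusted p under 0.05 that comparison held 1 of the 10, Itgae, and 1444 of 15298 genes, and DESeq2 called 328 genes and none of the 10. Between tissues, 4 of the 10 differed in cDC1 (11.7% of all genes), 3 in T-bet+ cDC2 (5.09%) and 2 in T-bet- cDC2 (5.95%). The comparisons of subsets within a tissue share their groups, so these counts are not independent of each other. Replicates are separate pools, and with 2 or 3 libraries a group the count of integrins that pass depends on the filter and on single libraries.

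**Figure D2:**
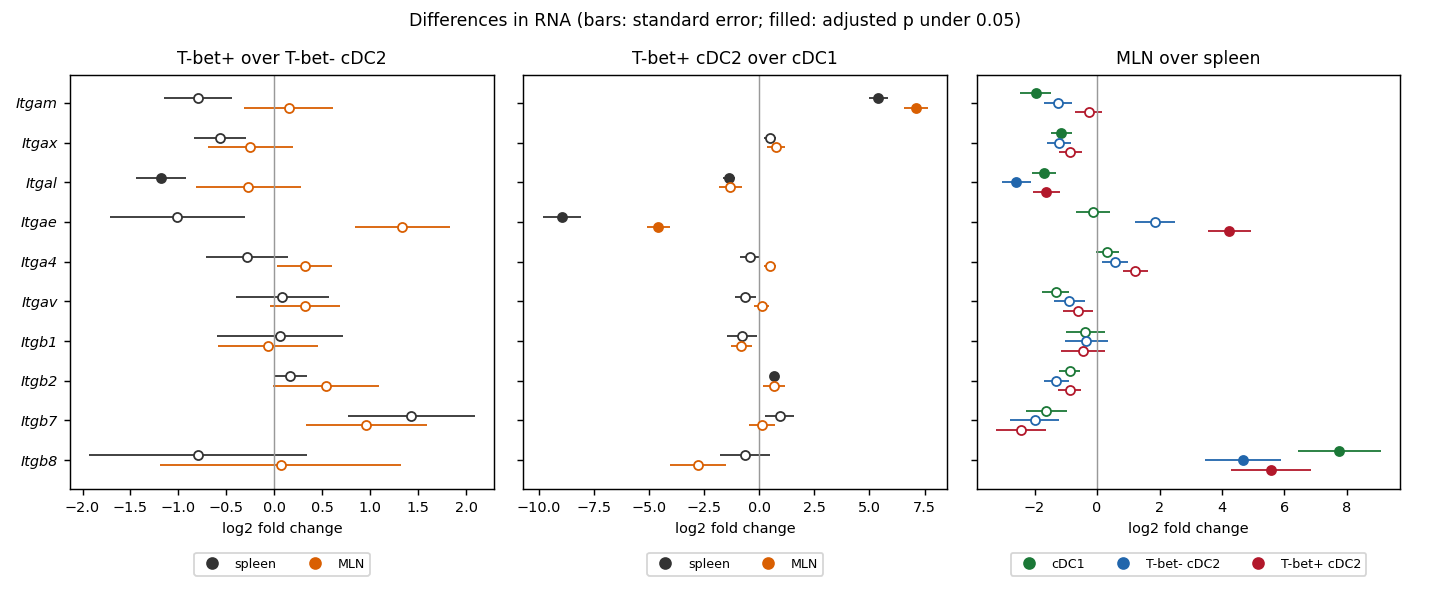
Log2 fold changes in RNA of the 10 chains between cDC2 subsets, between T-bet+ cDC2 and cDC1, and between MLN and spleen; bars are standard errors and filled points have an adjusted p under 0.05. Itgal alone is filled between the cDC2 subsets, and Itgb8 is filled and above 0 between tissues in all 3 subsets.

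Itgal, the α chain of LFA-1, which holds dendritic cells and T cells together through ICAM-1, was the one chain of the 10 that passed the test between the spleen cDC2 subsets. It measured 148, 166 and 146 CPM in T-bet+ cDC2, against 457, 271 and 319.6 CPM in T-bet- cDC2 and 283, 411 and 495 CPM in cDC1. All 3 T-bet+ libraries lay below the other 6. T-bet+ cDC2 differed from T-bet- cDC2 by -1.19 on the log2 scale (SE 0.26, 2.28-fold lower, edgeR adjusted p = 0.0302), and of T-bet+ cDC2 over cDC1 -1.37 (SE 0.26, 2.58-fold lower, adjusted p = 0.0056). The second held in all 18 alternatives run. The first was lost in 7 of 18: a fit that held library class constant gave -0.95 (adjusted p = 0.0835), without T-bet- replicate 1 -0.95 (adjusted p = 0.101), and it also missed the threshold without each T-bet+ library in turn. Among the 6 spleen libraries of the higher class, a comparison added after seeing the data, it was -1.07. There T-bet- replicate 3 is the only T-bet- library, so the spread of that subset is not measured. A summed list of 10 monocyte and macrophage markers moved in the same direction as Itgal, at 888 to 1236 CPM in spleen T-bet- cDC2 and 403 to 492 CPM in T-bet+ cDC2, but was only 33.5 to 44.9 CPM in cDC1, where Itgal was as high as in T-bet- cDC2. Its part in the result was not tested. In bulk samples, fewer cells of a type and less RNA per cell cannot be told apart.

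In MLN, Itgal was lower than in spleen for every subset. It stood at 194, 74.6 and 99.2 CPM in cDC1, at 60.0 and 56.5 CPM in T-bet- cDC2 and at 70.2 and 29.3 CPM in T-bet+ cDC2. No MLN library of a subset reached any spleen library of that subset. MLN over spleen was -2.58 (SE 0.46, adjusted p = 0.00657) in T-bet- cDC2, -1.69 (SE 0.38, adjusted p = 0.0138) in cDC1 and -1.62 (SE 0.44, adjusted p = 0.0478) in T-bet+ cDC2 on the log2 scale. The T-bet- value was lost without either MLN T-bet- library (adjusted p = 0.0768 without replicate 1 and 0.067 without replicate 2), and the cDC1 value in 3 of 20 alternatives. The T-bet+ value was lost in 9 of 20 alternatives, and without MLN T-bet+ replicate 2 it was -1.14 (adjusted p = 0.5). The 7 migratory markers went the opposite way: 6 were tested, and 6 were called higher in MLN cDC1, 5 in T-bet- cDC2 and 4 in T-bet+ cDC2. The MLN cDC1 and T-bet+ libraries with the low marker sums, replicate 1 of each, held the most Itgal of their groups (194 and 70.2 CPM), and also the most Itgb2 (701 and 1033 CPM) and Itgax (322 and 573 CPM). The part of migratory cells in these tissue differences was not tested. Whether the subsets differed in this drop was tested as an interaction, and Itgal did not pass it for any pair.

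Itgb2, the β chain that Itgal, Itgam and Itgax share, had the highest mean of the β chains per length in all 6 groups. These means were 149 to 433 counts per kilobase of exon, scaled to library size as CPM is (RPKM). In MLN cDC1 it overlapped Itgb1, which was the higher in replicates 2 and 3 (109 and 126 against 99.7 and 118 RPKM). In spleen Itgb2 measured 1326, 1424 and 1219 CPM in T-bet+ cDC2, 1436, 1069 and 1033 CPM in T-bet- cDC2 and 895, 812 and 804 CPM in cDC1. Both cDC2 subsets lay wholly above cDC1 and overlapped each other. T-bet+ cDC2 over cDC1 was 0.66 (SE 0.17, adjusted p = 0.0239), a call lost in 9 of 18 alternatives, with log2 fold changes from 0.55 to 0.72 over all of them. With the replicate number as a block it was 0.67 (adjusted p = 0.0522); same-numbered T-bet+ and cDC1 libraries of spleen deviated together (r 0.19 to 0.42 over 3 pairs), though the labels do not say what a number marks. The call was also lost without any single T-bet+ or cDC1 library (adjusted p 0.0532 to 0.131). T-bet- cDC2 over cDC1 was 0.50 (SE 0.17, adjusted p = 0.0832). In MLN it ranged from 304 to 1033 CPM with every pair of subsets overlapping, and the MLN libraries of each subset lay below the spleen ones (cDC1 -0.88, T-bet- cDC2 -1.30 and T-bet+ cDC2 -0.88 on the log2 scale, adjusted p 0.0634 to 0.159).

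Itgax, the gate's CD11c, had the highest mean of the α chains per length in 5 of the 6 groups, at 86.6 to 233 RPKM. It overlapped the next chain in spleen cDC1 (Itgae) and in MLN T-bet+ cDC2 (Itga4). In MLN cDC1 Itgae was above it at 69.7 ± 33.4 RPKM (SD, n = 3) against 51.2 ± 14.8 RPKM, a pair that overlapped. Itgax measured 1462, 891 and 1004 CPM in spleen T-bet- cDC2, 741, 792 and 733 CPM in T-bet+ cDC2 and 382, 492 and 751 CPM in cDC1. T-bet- cDC2 lay above both other subsets, while T-bet+ cDC2 and cDC1 overlapped. T-bet- cDC2 over cDC1 was 1.05 (SE 0.27, adjusted p = 0.0286) and was lost in 7 of 18 alternatives, among them without T-bet- replicate 1 (0.81, adjusted p = 0.0961) and without cDC1 replicate 1 (0.79, adjusted p = 0.117). Between tissues, Itgax was 322, 181 and 235 CPM in MLN cDC1, all below spleen cDC1 (-1.14, SE 0.33, adjusted p = 0.0376, lost in 9 of 20 alternatives). MLN T-bet- cDC2 held 463 and 501 CPM and MLN T-bet+ cDC2 573 and 259 CPM.

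Itgam, the gate's CD11b, was at 33.8 to 104 CPM in spleen cDC2 and 18.9 to 55.1 CPM in MLN cDC2, and at 0.219 to 1.55 CPM in cDC1. The fold changes of cDC2 over cDC1, 42.1 and 73.1 in spleen and 138 and 125 in MLN for T-bet+ and T-bet- cDC2, follow the sort. Within cDC2 the gate does not set the level. Spleen T-bet- cDC2 measured 104, 63.1 and 65.2 CPM and T-bet+ cDC2 44.8, 54.8 and 33.8 CPM. The groups did not overlap, but T-bet+ cDC2 differed from T-bet- cDC2 by only -0.79 on the log2 scale (SE 0.35, adjusted p = 0.269), and -0.41 with library class as a term (adjusted p = 0.687). The trace in cDC1 was lower in MLN (0.284, 0.304 and 0.219 CPM) than in spleen (1.05, 0.576 and 1.55 CPM), a log2 difference of -1.96 (SE 0.50, adjusted p = 0.0234) lost in 4 of 19 alternatives, all of which leave out a cDC1 library.

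The chromatin at Itgam did not all move with its RNA. The window over the start of Itgam (chr7:128062621-128062770) held 17 and 28 counts in cDC1, 59 and 69 in T-bet- cDC2 and 88 and 91 in T-bet+ cDC2, which put T-bet- cDC2 above cDC1 by 1.34 (adjusted p = 0.00096) and T-bet+ cDC2 by 1.76 (adjusted p = 5.97e-06) on the log2 scale, the former lost without cDC1 replicate 1 (0.96, adjusted p = 0.0803). An intronic window 5463 bases into the gene (chr7:128068029-128068178) held 8 and 7 counts in cDC1, 15 and 35 in T-bet- cDC2 and 60 and 27 in T-bet+ cDC2 (T-bet+ cDC2 over cDC1 2.30, SE 0.47, adjusted p = 4.89e-05), a call lost without T-bet+ replicate 1 (1.59, adjusted p = 0.0236). A window 17637 bases in, over an exon of Itgam (chr7:128080203-128080352), went the other way. It held 56 and 43 counts in cDC1 but 4 and 3 in T-bet- cDC2 and 5 and 6 in T-bet+ cDC2, so T-bet- cDC2 differed from cDC1 by -3.93 on the log2 scale (adjusted p = 2.78e-09) and T-bet+ cDC2 by -3.36 (adjusted p = 1.32e-08), and both held in all 11 alternatives. These windows also lie inside Gm49368, a predicted gene that overlaps Itgam on the same strand and was not in the RNA table under that symbol. The sequences are shown because the 2 inner windows are the widest differences of the gene in either direction and the promoter holds a PU.1 match. They are from GRCm38, plus strand, which is the strand of Itgam, and the promoter is the 250 bases before the start in RefSeq on GRCm38.p6. Capitals mark matches to the PU.1 letters GAGGAAG on either strand, and the exon window has no match to any motif searched.
Itgam promoter: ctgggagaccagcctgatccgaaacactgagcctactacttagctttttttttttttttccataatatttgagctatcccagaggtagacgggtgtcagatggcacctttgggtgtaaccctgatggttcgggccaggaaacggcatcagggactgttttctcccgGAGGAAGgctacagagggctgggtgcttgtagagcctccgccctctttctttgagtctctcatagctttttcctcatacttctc
Itgam intron window: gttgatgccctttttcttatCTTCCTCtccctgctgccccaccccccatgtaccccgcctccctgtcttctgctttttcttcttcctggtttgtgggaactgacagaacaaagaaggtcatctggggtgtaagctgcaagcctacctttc
Itgam exon window: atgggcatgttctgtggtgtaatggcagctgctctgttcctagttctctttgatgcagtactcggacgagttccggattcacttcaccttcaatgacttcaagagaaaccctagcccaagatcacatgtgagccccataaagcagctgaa

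Itgae, the αE chain that marks cDC1 as CD103, was the widest subset difference that the gate did not choose. It measured 308, 370.4 and 376 CPM in spleen cDC1, 2.46, 0.206 and 1.62 CPM in T-bet- cDC2 and 0.634, 0.263 and 1.25 CPM in T-bet+ cDC2. All cDC1 libraries lay far above all cDC2 libraries. The log2 fold change was -7.93 (SE 0.83, adjusted p = 0.000181) for T-bet- cDC2 and -8.94 (SE 0.87, adjusted p = 0.00011) for T-bet+ cDC2 over cDC1. In MLN, cDC1 held 494, 207 and 257 CPM, T-bet- cDC2 4.84 and 5.55 CPM and T-bet+ cDC2 9.94 and 16.9 CPM. The difference there was -5.90 (SE 0.58, adjusted p = 0.00167) and -4.56 (SE 0.53, adjusted p = 0.00371). All 4 calls held in every alternative. Itgae shares its locus with Haspin on the other strand, listed under its older symbol Gsg2 at 38 to 280 counts, and whether the counting used strand is not given in the sources used here.

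Itgae in T-bet+ cDC2 was higher in MLN than in spleen by 4.23 on the log2 scale (SE 0.68, 18.8-fold, adjusted p = 0.0054), with no overlap. Without MLN T-bet+ replicate 2 it was 3.79 (adjusted p = 0.072). In T-bet- cDC2 the difference between tissues was 1.85 (SE 0.64, adjusted p = 0.103), and the cDC1 groups of the 2 tissues overlapped. The test of whether the T-bet+ cDC2 to cDC1 difference itself changed with tissue gave 4.37 (SE 0.87, unadjusted p = 0.000171, adjusted p = 0.0822 in edgeR), which DESeq2 placed past the threshold (adjusted p = 0.000251). Summed cDC1 markers were 149 to 245 CPM in spleen T-bet+ cDC2 and 153 and 446 CPM in MLN T-bet+ cDC2. Only MLN T-bet+ replicate 2 thus lay above the spleen range, while both MLN T-bet+ libraries did so for Itgae. In MLN T-bet- cDC2 the marker sums were 375 and 654 CPM. The part of these markers in the Itgae value was not tested. None of the 10 passed any of the 3 interaction tests between tissue and subset in the filtered edgeR fit of all 16 libraries. There 0.00595% (T-bet+ over T-bet-), 0.0893% (T-bet+ over cDC1) and 0.0357% (T-bet- over cDC1) of all genes passed. At an unadjusted p under 0.05, Itgae was in all 3 tests and Itgam in 1, and DESeq2 called 1 of the 10, Itgae, in the T-bet+ over cDC1 test only.

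At Itgae 2 of 9 tested windows differed between T-bet+ cDC2 and cDC1, in opposite directions, where 23.0% of all windows did. Between T-bet- cDC2 and cDC1 1 of the 9 differed, where 17.9% of all windows did. Between the cDC2 subsets 0 of the 9 did (6.28% of all windows). The window nearest the start, 4207 bases in and intronic (chr11:73094716-73094865), held 60 and 45 counts in T-bet+ cDC2, 24 and 23 in T-bet- cDC2 and 9 and 12 in cDC1. T-bet+ cDC2 over cDC1 was 2.09 (SE 0.41, adjusted p = 2.78e-05) and held in all 11 alternatives, although cDC1 had the RNA. Over T-bet- cDC2 it was 1.09 (SE 0.36, adjusted p = 0.0349), short of the threshold used for windows (adjusted p under 0.01 with a log2 difference of more than 0.5 in size). The other lay 63071 bases from the start, past the end of the gene (chr11:73153580-73153729), and held 27 and 30 counts in cDC1, 2 and 10 in T-bet- cDC2 and 6 and 7 in T-bet+ cDC2 (-2.41 and -2.34, adjusted p = 0.000174 and 0.000155). It was highest in cDC1, as the RNA was, while the cDC2 subsets did not differ in it. The T-bet- call was lost without T-bet- replicate 1 (-1.80, adjusted p = 0.016), and both were lost by DESeq2 (adjusted p = 0.0116 each). Both sequences are shown because they are the gene's windows with opposite signs. They are from GRCm38, plus strand, which is the strand of Itgae. Capitals mark a PU.1 match (GAGGAAG) in the first and an AP-1 match (TGANTCA) in the second.
Itgae intron window: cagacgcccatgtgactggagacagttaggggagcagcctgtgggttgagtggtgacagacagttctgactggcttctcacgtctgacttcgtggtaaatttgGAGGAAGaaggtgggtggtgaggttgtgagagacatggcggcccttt
Itgae window past the gene end: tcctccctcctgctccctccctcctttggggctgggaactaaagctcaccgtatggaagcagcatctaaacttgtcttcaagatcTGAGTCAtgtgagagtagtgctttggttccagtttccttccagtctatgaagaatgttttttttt

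Itgb7, the partner of Itgae and Itga4, did not follow Itgae. In spleen it measured 606, 565 and 501 CPM in T-bet+ cDC2, 62.2, 147 and 413 CPM in T-bet- cDC2 and 431, 343 and 102 CPM in cDC1. T-bet+ cDC2 lay above all other spleen libraries, but the spread in the other subsets was wide, and T-bet+ over T-bet- cDC2 was 1.43 on the log2 scale (SE 0.66, adjusted p = 0.285). With no filter on low counts it passed, at 1.42 (SE 0.33, adjusted p = 0.00137). The share of all genes called in that setting is not given. Within the other 2 subsets the order followed library class: the 3 libraries of the higher class held 343 to 431 CPM and the 3 of the lower class 62.2 to 147 CPM. With class as a term the value was 0.46 (adjusted p = 0.623). Among libraries of the higher class, added after seeing the data, it was 0.43, with T-bet- replicate 3 as the only T-bet- library. In MLN, Itgb7 was lower, at 123, 61.7 and 99.7 CPM in cDC1, 27.5 and 76.7 CPM in T-bet- cDC2 and 156 and 50.3 CPM in T-bet+ cDC2, with tissue differences of -1.62 to -2.44 (SE 0.66 to 0.80) whose adjusted p, 0.0852 to 0.141, missed the threshold. DESeq2 placed all 3 past it (adjusted p 0.0101 to 0.0482). At its chromatin, a window 880 bases into the gene (chr15:102230990-102231139) held 57 and 51 counts in cDC1, 116 and 145 in T-bet- cDC2 and 209 and 136 in T-bet+ cDC2 (1.11 and 1.46 over cDC1, adjusted p = 0.000305 and 1.25e-06). The window over its start (chr15:102231857-102232006) reached 0.86 in T-bet+ cDC2 over cDC1 (adjusted p = 0.00923), a call lost in 9 of 11 alternatives. A window 368 bases before the start (chr15:102232238-102232387) was lower in T-bet- cDC2 than in cDC1 (-1.57, adjusted p = 0.00198), with 9 and 19 counts against 41 and 33, and that call was lost by DESeq2 and without T-bet- replicate 1 or cDC1 replicate 1 (adjusted p 0.0264 to 0.0584).

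Itga4, the α chain of VLA-4 and of the gut-homing α4β7, measured 283, 333 and 258 CPM in spleen T-bet+ cDC2, 568, 226 and 274 CPM in T-bet- cDC2 and 187, 426 and 562 CPM in cDC1. All pairs overlapped and none passed. In MLN it stood at 599.7 and 762 CPM in T-bet+ cDC2, above 586 and 477 CPM in T-bet- cDC2 and above 466, 492 and 517 CPM in cDC1. Neither MLN difference of T-bet+ cDC2 passed, and for T-bet+ cDC2 MLN over spleen was 1.22 (SE 0.40, adjusted p = 0.0864).

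While its RNA passed in no spleen comparison, Itga4 held the window that differed most between the cDC2 subsets among the 133. It lies in an intron, 11287 bases from the start (chr2:79266639-79266788). It held 303 and 209 counts in T-bet+ cDC2, 37 and 50 in T-bet- cDC2 and 31 and 23 in cDC1. Only the T-bet+ libraries were high, and the other 4 stayed at 50 counts or fewer. T-bet+ over T-bet- cDC2 was 2.50 (SE 0.25, adjusted p = 6.25e-12) and over cDC1 3.02 (SE 0.27, adjusted p = 3.16e-15), and both held in all 11 alternatives. The window over the start (chr2:79255316-79255465) held 590 and 586 counts in T-bet+ cDC2, 493 and 480 in T-bet- cDC2 and 280 and 272 in cDC1, with 0.87 and 0.67 over cDC1 (adjusted p = 9.47e-06 and 0.000818). The T-bet- value was lost without T-bet- replicate 1 or either cDC1 library (adjusted p 0.0124 to 0.0659). A window 40758 bases in (chr2:79296110-79296259) was lower in both cDC2 subsets than in cDC1 (-1.41 and -1.76, adjusted p = 0.00386 and 0.000713), with 11 to 18 counts against 32 and 41. Both were lost by DESeq2 and without cDC1 replicate 2 (adjusted p = 0.0917 for T-bet+ and 0.032 for T-bet- cDC2), the T-bet+ call also without either T-bet+ library and the T-bet- call without T-bet- replicate 2. The first of these is shown as the one window of these genes that was called higher in T-bet+ cDC2 than in both other subsets. It is from GRCm38, plus strand, which is the strand of Itga4. Capitals mark a match to the Runx letters TGTGGTT, read here on the minus strand, and no T-box match (AGGTGTNA) was found in it.
Itga4 intron window: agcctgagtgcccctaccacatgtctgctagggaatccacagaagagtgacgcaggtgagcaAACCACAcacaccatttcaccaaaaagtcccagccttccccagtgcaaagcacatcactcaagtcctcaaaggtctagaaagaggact

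Itgb1, the β chain of VLA-4, varied as much within subsets as between them. Spleen cDC1 measured 537, 769 and 214 CPM, T-bet- cDC2 106, 128 and 616 CPM and T-bet+ cDC2 312, 331 and 242 CPM. The outlying cDC1 and T-bet- libraries were again ordered by library class. No comparison of Itgb1 passed. Without T-bet- replicate 3, T-bet- cDC2 over cDC1 was -2.17 (adjusted p = 0.0198), against -0.84 (adjusted p = 0.454) with it. Leaving it out keeps only T-bet- libraries of the lower class. A class term put T-bet- cDC2 over cDC1 at -0.48 (adjusted p = 0.204). Among libraries of the higher class, where replicate 3 is the only T-bet- library, it was -0.07. With class as a term T-bet+ cDC2 over cDC1 was -1.29 (SE 0.25, adjusted p = 0.00376), and among libraries of the higher class -1.14 (SE 0.21, adjusted p = 0.00393). MLN levels ran from 136 to 513 CPM, and every tissue and subset pair overlapped.

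Most called windows of Itgb1 were more open in cDC1. Of its 9 tested windows, 7 differed between T-bet+ cDC2 and cDC1, 6 of them lower in T-bet+ cDC2, and 4 between T-bet- cDC2 and cDC1, all lower in T-bet- cDC2, where 23.0% and 17.9% of all windows were called. An intronic window 4625 bases in (chr8:128690205-128690354) held 68 and 93 counts in cDC1, 13 and 22 in T-bet- cDC2 and 2 and 8 in T-bet+ cDC2 (-2.37 and -4.21, adjusted p = 2.51e-07 and 2.65e-12). Both calls held in all 11 alternatives. The sequence is shown as the widest difference between T-bet+ cDC2 and cDC1 among the 133 windows, from GRCm38, plus strand, which is the strand of Itgb1, and carries no match to the motifs searched.
Itgb1 window at 4625 bases: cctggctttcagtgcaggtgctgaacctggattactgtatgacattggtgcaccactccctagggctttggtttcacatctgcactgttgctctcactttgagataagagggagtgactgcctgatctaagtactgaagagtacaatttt

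Itgav, the α chain that pairs with β8, was low in every group, at 0.883 to 2.66 RPKM, and was the lowest α chain of the 6 in both MLN cDC2 subsets. Spleen levels were 26.6, 44.4 and 14.7 CPM in cDC1, 12.2, 10.7 and 29.6 CPM in T-bet- cDC2 and 15.3, 16.4 and 23.9 CPM in T-bet+ cDC2, all overlapping. As for Itgb1, the class term moved T-bet+ cDC2 over cDC1 to -0.95 (SE 0.28, adjusted p = 0.033), while among libraries of the higher class it was -0.93 (adjusted p = 0.0572). MLN levels were 8.44 to 14.7 CPM, and cDC1 lay below spleen cDC1 without overlap (-1.33, SE 0.44, adjusted p = 0.0605).

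With 27 tested windows, Itgav had the most chromatin of the 10, and 13 of them differed between T-bet+ cDC2 and cDC1 and 10 between T-bet- cDC2 and cDC1. Of these, 11 and 8 were lower in cDC2. Over all windows, 23.0% and 17.9% were called in these comparisons. The widest lay 22165 bases in (chr2:83746488-83746637), inside Itgav and the overlapping transcript Gm13684 and next to the start of the pseudogene Dnmt3l-ps1. It held 128 and 132 counts in cDC1, 12 and 15 in T-bet- cDC2 and 8 and 9 in T-bet+ cDC2, with -3.42 (SE 0.33, adjusted p = 2.7e-13) and -4.14 (SE 0.36, adjusted p = 1.37e-15). Another, 44434 bases in (chr2:83768757-83768906), held 38 and 49 counts in cDC1, 6 and 18 in T-bet- cDC2 and 3 and 4 in T-bet+ cDC2 (-2.03 and -3.82, adjusted p = 0.000109 and 9.22e-09), the former lost without T-bet- replicate 1 or cDC1 replicate 2 (adjusted p = 0.0138 and 0.0103). The window over the start of Itgav (chr2:83724328-83724477) went the other way, with 433 and 418 counts in cDC1 and 701 to 831 in cDC2 (0.66 and 0.62 over cDC1, adjusted p = 0.000438 and 0.000659). Both were lost without cDC1 replicate 1 (adjusted p = 0.0192 and 0.022), the first also without T-bet- replicate 1 (0.43, adjusted p = 0.0918) and the second when scaled by library size only (0.44). The first is shown as the widest difference between T-bet+ cDC2 and cDC1 after that at Itgb1, from GRCm38, plus strand, which is the strand of Itgav, with an AP-1 match (TGANTCA) in capitals.
Itgav window at 22165 bases: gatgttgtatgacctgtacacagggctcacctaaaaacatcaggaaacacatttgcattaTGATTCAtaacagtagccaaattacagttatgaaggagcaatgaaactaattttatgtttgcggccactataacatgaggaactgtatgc

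Itgb8, which with αv frees TGF-β, differed between tissues in all 3 subsets, and did so more than any other of the 10. In spleen it was at 0.162, 0.494 and 1.21 CPM in cDC1, 1.11, 0.565 and 0.378 CPM in T-bet- cDC2 and 0.792, 0.375 and 0 CPM in T-bet+ cDC2. In MLN it measured 40.4, 199 and 160.5 CPM in cDC1, 27.1 and 7.65 CPM in T-bet- cDC2 and 1.24 and 36.4 CPM in T-bet+ cDC2. Every MLN library lay above every spleen library, by a narrow margin in MLN T-bet+ replicate 1. MLN over spleen was 7.76 (SE 1.33, 217-fold, adjusted p = 0.00388) in cDC1, 5.57 (47.4-fold, adjusted p = 0.027) in T-bet+ cDC2 and 4.67 (SE 1.23, 25.5-fold, adjusted p = 0.0392) in T-bet- cDC2. The cDC1 value held in all 19 alternatives. The T-bet+ value was 1.64 (adjusted p = 0.611) without MLN T-bet+ replicate 2, and the T-bet- value was 3.52 (adjusted p = 0.278) without MLN T-bet- replicate 1. The T-bet+ call was lost in 4 and the T-bet- call in 8 of 19 alternatives. No interaction between tissue and subset passed for Itgb8, and within MLN no subset pair passed, although all cDC1 libraries lay above all cDC2 libraries; without MLN T-bet+ replicate 2, T-bet+ cDC2 over cDC1 was -6.69 (adjusted p = 0.033). With no filter on low counts both MLN differences from cDC1 passed, at -2.86 for T-bet- cDC2 (adjusted p = 6.98e-05) and -2.79 for T-bet+ cDC2 (adjusted p = 0.000102). The interactions with tissue of these differences then passed too, at -3.03 for T-bet- cDC2 (adjusted p = 0.000247) and -2.11 for T-bet+ cDC2 (adjusted p = 0.0437). The share of all genes called in that setting is not given.

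The level of Itgb8 is set here beside the migratory markers of each MLN library. MLN cDC1 replicate 1, with 40.4 CPM of Itgb8, had a marker sum of 4161 CPM, and replicates 2 and 3, with 199 and 160.5 CPM, had 15199 and 14779 CPM. MLN T-bet+ replicate 1, with 1.24 CPM, had 2976 CPM, and replicate 2, with 36.4 CPM, had 11158 CPM. The T-bet- libraries, with 27.1 and 7.65 CPM of Itgb8, had 12238 and 13385 CPM, and spleen libraries had 1533 to 5018 CPM. So the MLN libraries with the least Itgb8 in cDC1 and T-bet+ cDC2 were those with marker sums within the range of spleen. The part of migratory cells in the Itgb8 difference was not tested.

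**Figure D3:**
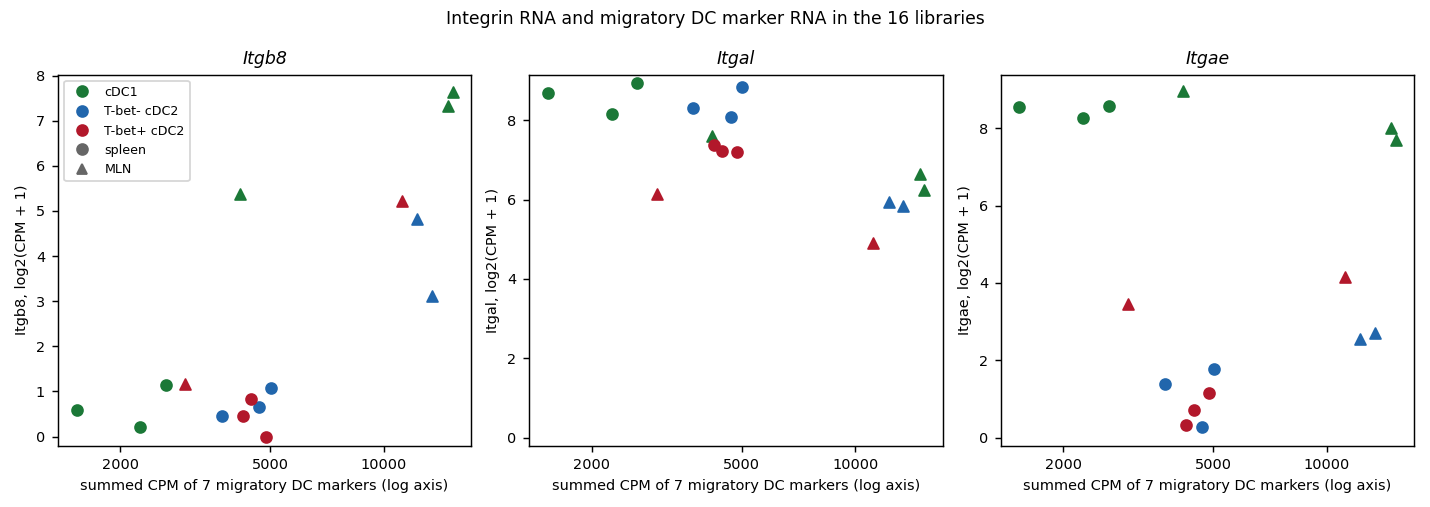
RNA of Itgb8, Itgal and Itgae, as log2(CPM + 1), against the summed CPM of 7 migratory dendritic cell markers on a log axis in the 16 libraries; circles are spleen and triangles MLN, coloured by subset. MLN cDC1 replicate 1 (4161 CPM of markers, 40.4 CPM of Itgb8) and MLN T-bet+ replicate 1 (2976 and 1.24 CPM) lie within the range of markers seen in spleen.

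The chromatin at Itgb8 was measured in spleen alone, where its RNA was near 0. Of its 15 tested windows, 1 passed between the cDC2 subsets, where 6.28% of all windows did. Against cDC1, 3 passed for T-bet+ cDC2 (23.0% of all windows) and 2 for T-bet- cDC2 (17.9%). These were 4 windows in all. One just past the gene's end (chr12:119157185-119157334) held 113 and 108 counts in T-bet- cDC2, 125 and 168 in T-bet+ cDC2 and 29 and 22 in cDC1, so T-bet- cDC2 exceeded cDC1 by 1.96 (adjusted p = 7.48e-08) and T-bet+ cDC2 by 2.29 (adjusted p = 3.11e-10). A second nearby (chr12:119157817-119157966) held 42 and 53 counts in T-bet- cDC2 against 5 and 11 in cDC1 (2.38, SE 0.44, adjusted p = 1.19e-05). Another, chosen after its values were seen, was the only other window of the 133 that passed between the cDC2 subsets (chr12:119151101-119151250). It held 14 and 20 counts in T-bet+ cDC2, 59 and 36 in T-bet- cDC2 and 60 and 79 in cDC1. T-bet+ over T-bet- cDC2 was -1.56 (SE 0.37, adjusted p = 0.00198), a call lost in 3 of 11 alternatives (adjusted p = 0.203 without T-bet- replicate 1). The first is shown because it holds IRF letters. It is from GRCm38, plus strand, opposite to Itgb8. Capitals mark 2 matches to GAAANNGAA that overlap each other.
Itgb8 window past the gene end: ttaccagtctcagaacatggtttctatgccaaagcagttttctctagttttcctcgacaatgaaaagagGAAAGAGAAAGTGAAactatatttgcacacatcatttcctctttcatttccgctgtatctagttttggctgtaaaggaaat

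**Figure D4:**
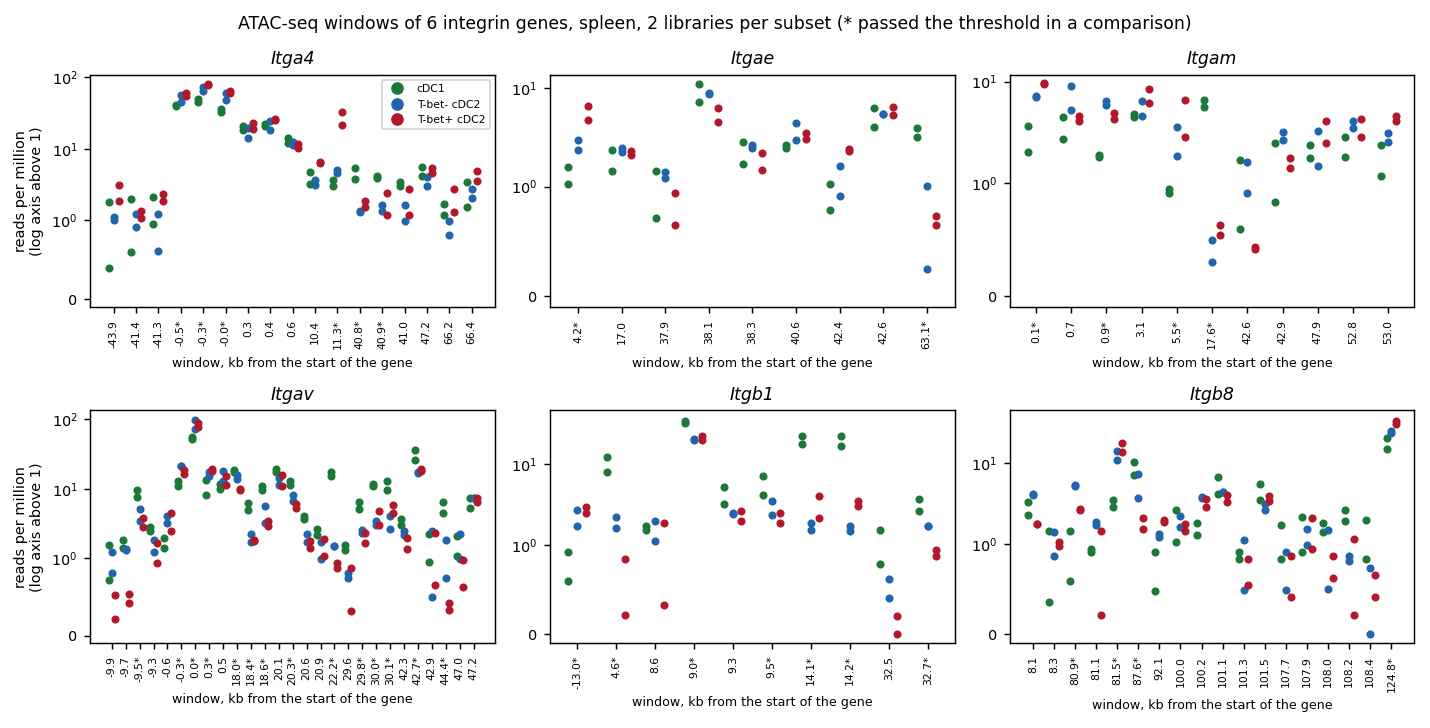
ATAC-seq level of each window of Itga4, Itgae, Itgam, Itgav, Itgb1 and Itgb8 in CPM, on an axis that is logarithmic above 1, with windows in order of their distance from the start of the gene in kilobases; each point is 1 of 2 libraries per spleen subset, and an asterisk marks a window that passed in a comparison. At the Itga4 window 11287 bases from the start both T-bet+ libraries (303 and 209 counts) stand above the other 4, and at the Itgb1 window 4625 bases from the start both cDC1 libraries (68 and 93 counts) do.

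Over all 133 tested windows of the 10 genes, 2 differed between T-bet+ and T-bet- cDC2, where 6.28% of all windows did. Between T-bet+ cDC2 and cDC1 42 differed, 21 in each direction (23.0% of all windows), and between T-bet- cDC2 and cDC1 30 did, 13 higher and 17 lower in cDC2 (17.9% of all windows). The directions were uneven between genes. All 3 and 4 called windows of Itgb2 were higher in T-bet+ and T-bet- cDC2 than in cDC1, as in the window 14885 bases in (chr10:77545063-77545212), which held 45 and 45 counts in cDC1 and 105 and 166 in T-bet- cDC2 (1.41, SE 0.26, adjusted p = 1.23e-05). Of the 21 windows lower in T-bet+ cDC2 than in cDC1, Itgav gave 11 and Itgb1 gave 6. Itgal had 2 called windows, at 7626 and 7732 bases, which overlap each other and share counts. In the second T-bet+ replicates held 72 and 19 counts against 9 and 7 in cDC1, and the call was lost without T-bet+ replicate 1. The one called window of Itgax (chr7:128138512-128138661) held 163 and 81 counts in T-bet+ cDC2 and 49 and 56 in cDC1 (1.00, SE 0.28, adjusted p = 0.00309), and was lost in 4 of 11 alternatives.

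Of the letters searched on both strands, GAGGAAG (PU.1) was found in 18.8% of the 138 windows and 13.2% of all windows, TGANTCA (AP-1) in 12.3% and 7.90%, GAAANNGAA (IRF) in 7.97% and 5.61%, and TGTGGTT (Runx) in 7.97% and 5.23%. AGGTGTNA (T-box) was found in 1.45% and 1.92%, TTGCNNAA (C/EBP) in 5.80% and 5.89% and TGGGAAA (Rbpj) in 6.52% and 3.76%. Neighbouring windows can overlap and share letters, so these shares are descriptions.

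Per length, Itgb2 led the β chains by mean in every group, though it overlapped Itgb1 in MLN cDC1. Itgb8 was the last of them in every group, at 0.0352 to 0.0618 RPKM in spleen. In MLN it was at 1.57 and 1.70 RPKM in T-bet- and T-bet+ cDC2, and at 3.65 RPKM or more in every cDC1 library. Itgb7 was the second β chain in spleen T-bet+ cDC2 at 201 ± 19.1 RPKM (SD, n = 3), clear of Itgb1 at 72.3 ± 11.5 RPKM, while in spleen T-bet- cDC2 and cDC1 the pair overlapped. Among α chains, Itgax, Itgae and Itgal led in spleen cDC1 at 113 ± 39.5, 76.8 ± 8.23 and 60.4 ± 16.3 RPKM, each overlapping the next. In spleen T-bet+ cDC2 Itgax stood at 157 ± 6.68 RPKM, clear of Itgal and Itga4, which overlapped at 23.3 ± 1.73 and 20.8 ± 2.73 RPKM. In both MLN cDC2 subsets Itga4 was the second α chain by mean, at 38.0 ± 5.49 (SD, n = 2) and 48.7 ± 8.22 RPKM, and was clear of Itgal at 8.87 and 7.57 RPKM. In MLN T-bet+ cDC2 Itga4 overlapped Itgax above it.

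The genes whose profile over the 16 libraries lay closest to a member were found among 8058 genes by the root mean square difference of centred log2(CPM + 1). Itgb2 was closest to Ppfia4 (0.17) and Rassf5 (0.20), which encodes a partner of RAP1 in integrin activation. Itgae lay closest to RP23-182K18.1 (0.75) and Xcr1 (0.87), the chemokine receptor of the cDC1 gate. Itgam was closest to Skint3 and Siglece, Itgax to Myo1f and Stk10, Itgal to Plekho2 and Vwf, and Itga4 to Ccng1 and Actr2. Itgav was closest to Cbl and Nus1, Itgb1 to Tbc1d8, Itgb7 to Tomm20 and Ppm1g, and Itgb8 to Ndrg2 (0.50) and Rhoc (0.80).

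The other integrin chains, ligands and activators were read from lists of 16, 17 and 37 genes in the table. Of 10 other chains tested in spleen, 4 were lower in T-bet+ than in T-bet- cDC2 and none higher (median log2 fold change -1.14 over the 10, -0.01 over all genes, of which 5.38% were called). Of the monocyte and macrophage markers, 8 were tested in that comparison and 5 were lower in T-bet+ cDC2 too (median -3.25); their part, and that of library class, in the differences of these chains and of the ligands was not tested. The widest were Itga8 (-5.47, SE 1.01, adjusted p = 0.0138), Itga1 (-3.66, SE 0.53, adjusted p = 0.00464) and Itgb5 (-3.51, SE 0.61, adjusted p = 0.0108), the last an alternative partner of αv, at 8.28 ± 0.797 CPM (SD, n = 3) in T-bet- cDC2 and 0.724 ± 0.433 CPM in T-bet+ cDC2. Against cDC1, 3 were higher and 4 lower in T-bet+ cDC2, and 4 higher and 3 lower in T-bet- cDC2. Of all genes, 18.2% and 15.9% were called there. Itga8, whose product pairs with β1, was lower in T-bet+ cDC2 than in cDC1 (-8.47, SE 1.11, adjusted p = 0.000659), and Itgb3, another αv partner, was higher (5.36, SE 0.51, adjusted p = 0.0001). In MLN, none passed between the cDC2 subsets, 2 were lower in T-bet+ cDC2 than in cDC1 and 1 was higher and 1 lower in T-bet- cDC2. The shares of all genes called were 0.0%, 6.22% and 5.79%.

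Of 12 ligands tested in spleen, 2 were lower in T-bet+ than in T-bet- cDC2 and none higher, against 5.38% of all genes called and beside the same fall of 5 of 8 monocyte and macrophage markers. These were Vcam1, the ligand of VLA-4 (-2.07, SE 0.38, adjusted p = 0.0139, 29.7 ± 0.647 against 125 ± 46.1 CPM, SD, n = 3), and F11r, a ligand of LFA-1 (-2.19, SE 0.35, adjusted p = 0.00747). Against cDC1, 3 were higher and 2 lower in T-bet+ cDC2, and 4 and 2 in T-bet- cDC2, where 18.2% and 15.9% of all genes were called. Cdh1, the E-cadherin that Itgae binds, was low in every group but higher in cDC2: it was at 2.77 ± 1.98 CPM in spleen T-bet- cDC2, 0.541 ± 0.469 CPM in T-bet+ cDC2 and 0.0161 ± 0.0279 CPM in cDC1, and it passed for both (adjusted p = 0.00326 and 0.0224). Its direction was opposite to that of Itgae. In MLN, 1 of 14 was higher in T-bet- cDC2 than in cDC1, and 1 higher and 1 lower in T-bet+ cDC2. All genes were called at 5.79% and 6.22% in these comparisons. Of 15 ligands tested between tissues, 3 were higher and 2 lower in MLN cDC1, 1 higher and 1 lower in T-bet+ cDC2 and 1 higher in T-bet- cDC2, where 11.7%, 5.09% and 5.95% of all genes were called. Icam1, the ligand of LFA-1, was higher in MLN cDC1 (1.53, SE 0.32, adjusted p = 0.00924) and T-bet- cDC2 (1.43, SE 0.34, adjusted p = 0.0259), and stood at 1.22 in T-bet+ cDC2 (adjusted p = 0.053). Tgfb1, the latent cytokine that αvβ8 acts on, was lower in MLN T-bet+ cDC2 (-2.15, SE 0.55, adjusted p = 0.0406) and cDC1 (-1.64, SE 0.46, adjusted p = 0.0368), and stood at -1.48 in T-bet- cDC2 (adjusted p = 0.113).

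Of 35 activation and adaptor genes tested in spleen, 9 were higher and 4 lower in T-bet+ cDC2 than in cDC1, and 10 higher and 2 lower in T-bet- cDC2, where 18.2% and 15.9% of all genes were called. Between the cDC2 subsets, where 5.38% were, 1 was higher (Ptk2, 1.60, SE 0.39, adjusted p = 0.045) and 1 lower (Cd81, -1.57, SE 0.20, adjusted p = 0.00257) in T-bet+ than in T-bet- cDC2. The widest against cDC1 were Rasgrp1 (3.60, SE 0.78, adjusted p = 0.0104, in T-bet+ cDC2 and 5.04, SE 0.82, adjusted p = 0.00267, in T-bet- cDC2), an exchange factor for RAS-family proteins, and Fgr (3.52, SE 0.20, adjusted p = 5.53e-06 and 3.74, SE 0.21, adjusted p = 4.99e-06), a SRC-family kinase that works downstream of β2 integrins. In MLN, 5 were higher and 1 lower in T-bet+ cDC2 than in cDC1 and 6 higher in T-bet- cDC2, and none passed between the cDC2 subsets. The shares of all genes called were 6.22%, 5.79% and 0.0%. The list medians against cDC1 in spleen were 0.46 in T-bet+ and 0.28 in T-bet- cDC2, where all genes had 0.03 and -0.01.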

How the data were processed

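RNA-seq covered 16 libraries of spleen and MLN dendritic cells and ATAC-seq 6 of spleen, grouped by their labels. Per the study's methods and processing notes, the authors aligned reads to mm10/GRCm38 with HISAT2 2.1.0 (RNA) or Bowtie2 2.2.5 (ATAC), used SAMtools 1.9 and R 3.4.0, shifted ATAC reads by 4 and 5 bases and called peaks with MACS2 2.1.1.20160309 on all replicates together. The authors deposited raw counts per gene, per 150-base window around each summit and per peak. The deposited summit list also holds the −log10 p of MACS2, and the deposited peak list a score that is constant; neither was tested. Use of strand in counting is not given in the sources used here. Columns that could not be mapped to a sample numbered 0.

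Counts were tested with edgeR 4.0.16 (R 4.3.3; quasi-likelihood test, TMM scaling, filterByExpr) across all genes or windows, with Benjamini-Hochberg adjustment: adjusted p under 0.05 for RNA, and under 0.01 with a log2 difference of more than 0.5 in size for windows. Spleen, MLN and ATAC libraries were fitted separately, and tissue comparisons and interactions in 1 fit of all 16. A window belongs to a member when that is the closest gene within 50000 bases (GENCODE M21). CPM used TMM factors over all 16 libraries, and RPKM divides by merged exon length. The windows named are, per gene, that nearest the start and those called with the largest changes. Members and lists were chosen with earlier results of these data known. Alternatives were DESeq2 1.42.0, other scaling, filters and designs and leaving out each library; library class as a term, or its higher class alone, was added after seeing the data. Scripts were tested on simulated data. Each RNA library pools 2 mice, so p-values measure the spread between pools. RNA libraries held 20993220 to 29006549 counts and ATAC libraries 7270164 to 10081555. A few items are not reported here.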

Additional observations from a re-analysis of the deposited data

How the results depend on the processing

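No result reversed. Of the 21 RNA results of single chains that passed, 10 passed in every alternative and 11 were lost in some, and of 40 window results 21 and 19. The 10 include Itgam over cDC1 for both cDC2 subsets in both tissues, which follows from the gate. Settings also differ in the share of all genes called. In MLN over spleen DESeq2 called 13.9% in T-bet- cDC2 and 16.1% in T-bet+ cDC2, where edgeR called 5.95% and 5.09%. For the T-bet+ over cDC1 interaction it called 1.39%, where edgeR called 0.0893%. No such share is given for the other filters and designs, so their counts of chains have no background beside them. Counts of chains called moved as follows, and the cause was not tested. In spleen T-bet+ over T-bet- cDC2 (1 chain, Itgal) the fit of all 16 libraries, the class term and the replicate block each gave 0, no filter gave 2, and leaving out a library 0 to 1 (0 without T-bet- replicate 1 or any T-bet+ library). In MLN, T-bet- cDC2 over cDC1 (2) gave 1 with at least 10 counts and 5 with a replicate block by the number in the library name, and T-bet+ cDC2 over cDC1 (2) gave 1, 4 with no filter and 4 with that block. MLN over spleen gave 6 by DESeq2, 1 with at least 10 counts, 7 with no filter and 0 to 3 without a library in T-bet- cDC2 (2), gave 5, 1, 5 and 0 to 4 in T-bet+ cDC2 (3), and gave 2 with at least 10 counts, 7 with no filter and 1 to 5 without a library in cDC1 (4). Of the interactions (0 each), T-bet- over cDC1 gave 2 and T-bet+ over T-bet- 1 with no filter, and T-bet+ over cDC1 gave 1 by DESeq2, 2 with no filter and 0 to 1 without a library. For windows, T-bet- cDC2 over cDC1 (30) gave 46 at adjusted p under 0.05 with no fold limit and 16 to 36 without a library, T-bet+ over T-bet- cDC2 (2) gave 1 by DESeq2, 7 at adjusted p under 0.05, 6 over whole peaks, 5 within 10000 bases and 1 to 5 without a library, and T-bet+ cDC2 over cDC1 (42) gave 27 by DESeq2 and 24 to 44 without a library. The lowest ATAC counts against cDC1, 16 and 24, came without cDC1 replicate 2. Between the cDC2 subsets, 133 member windows were tested in the main fit, 105 by DESeq2, 145 within 10000 bases and 63 whole peaks. Of all windows 6.28% were called in the main fit and 4.18% by DESeq2, and of all whole peaks 12.9%. In T-bet+ cDC2 over cDC1, DESeq2 called 14.6% of all windows and the main fit 23.0%. Where a left-out MLN or ATAC library, or the higher class of spleen, leaves 1 of a subset, that one is assumed to vary like the other groups. Libraries with the same number correlated at -0.73 to 0.42 in spleen, -0.15 to 0.64 in MLN by replicate order and -0.05 to 0.03 in ATAC; in spleen the T-bet+ and cDC1 pairs alone were all positive. By the number in the MLN library names the 5 pairs ran from -0.000729 to 0.643, so not every pair deviated together. A block on that number brought Itgax (1.36, adjusted p = 0.00308), Itgb1 (-1.12, adjusted p = 0.0162) and Itgb8 (-3.86, adjusted p = 0.00319) in T-bet- cDC2 over cDC1 and Itgal (-1.47, adjusted p = 0.00338) and Itgb8 (-3.71, adjusted p = 0.00419) in T-bet+ cDC2 over cDC1 past the threshold.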
